A study of Homo sapiens with 2 samples.

Results

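Ubiquitin conjugating and deubiquitinating enzyme genes were examined in a ChIP-seq peak list of the hepatocellular carcinoma (HCC) line MHCC-97H, which is of human origin. The cells overexpressed HA-tagged RFX6, a DNA-binding protein of the RFX transcription factor family, and chromatin was precipitated with an anti-HA antibody. The series holds 2 libraries from this line, namely 1 HA-RFX6 ChIP and 1 input, and only the ChIP peak list was analysed here. Members were taken as protein-coding genes in RefSeq (GRCh38.p14) whose symbol starts with UBE2, or with USP and a digit, without the USP17L copies. This gave 88 of 20037 protein-coding genes, of which 36 were UBE2 and 52 were USP genes. The symbol rule also takes in USP6NL, which encodes a GTPase-activating protein and not a protease. It further includes UBE2V1P16, which carries a pseudogene-style symbol but is listed as protein-coding.

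Ubiquitin is passed from an activating enzyme (E1) to a conjugating enzyme (E2), and from there, with the help of a ligase (E3), to a substrate protein. UBE2 genes encode most E2 enzymes, and some of these carry a ubiquitin-like protein such as NEDD8 or ISG15 in place of ubiquitin. USP genes encode the ubiquitin-specific proteases, the largest family of deubiquitinating enzymes, which take ubiquitin off again. The chains formed and removed in this way set protein turnover by the proteasome, signalling and DNA repair in liver cells as in other cells.

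The peak list held 5019 distinct intervals on the nuclear chromosomes, each with a whole-number score from the authors. The scores had a median of 30, quartiles of 22 and 39, and a range from 13 to 170. What the score stands for is not stated, and it was used only to rank intervals within the list. There was no replicate, so that no test was possible. Wilson intervals cover the counting of genes only, and read depth was unknown.

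The first question was how many of these enzyme genes carried an interval. An interval was counted at a gene end when its midpoint lay within 1 kb of either end of the gene. It was counted in the body when it overlapped the gene elsewhere. Of the 88 genes, 14 had an interval at a gene end (15.9%, 95% Wilson interval 9.72% to 25.0%). The same was found for 15.5% of all protein-coding genes, so the share of these enzymes did not stand out from the background. A further 3 genes had an interval in the body only (3.41%, 1.17% to 9.55%), compared with 4.06% of all protein-coding genes. Thus 17 genes with 22 intervals had either kind (19.3%, 12.4% to 28.8%), compared with 19.5% of all protein-coding genes. Among UBE2 genes, 6 of 36 had an interval at a gene end (16.7%, 7.87% to 31.9%). Among USP genes the number was 8 of 52 (15.4%, 8.01% to 27.5%), and both confidence intervals covered the background.

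The score of the 19 gene-end intervals, which came from 14 genes, had a median of 39, with a range from 17 to 86. The binomial confidence interval of the median, which treats intervals of the same gene as independent, ran from 29 to 45. The median of all 3054 intervals at coding gene ends was 32, which lay inside this confidence interval. The median width was 382 bp, with a confidence interval from 289 to 561 bp that has the same limit. The median width of all gene-end intervals was 282 bp, which lay outside it, and the difference in width was not tested. Of all 22 intervals at these enzymes, 16 scored at least the median of the list, and 4 genes had more than 1 interval. Intervals at coding gene ends ran higher than the list as a whole, with quartiles of 25 and 43. The 16 were not compared with the share among those, and the 4 genes were not compared with a share over all coding genes.

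**Figure D1:**
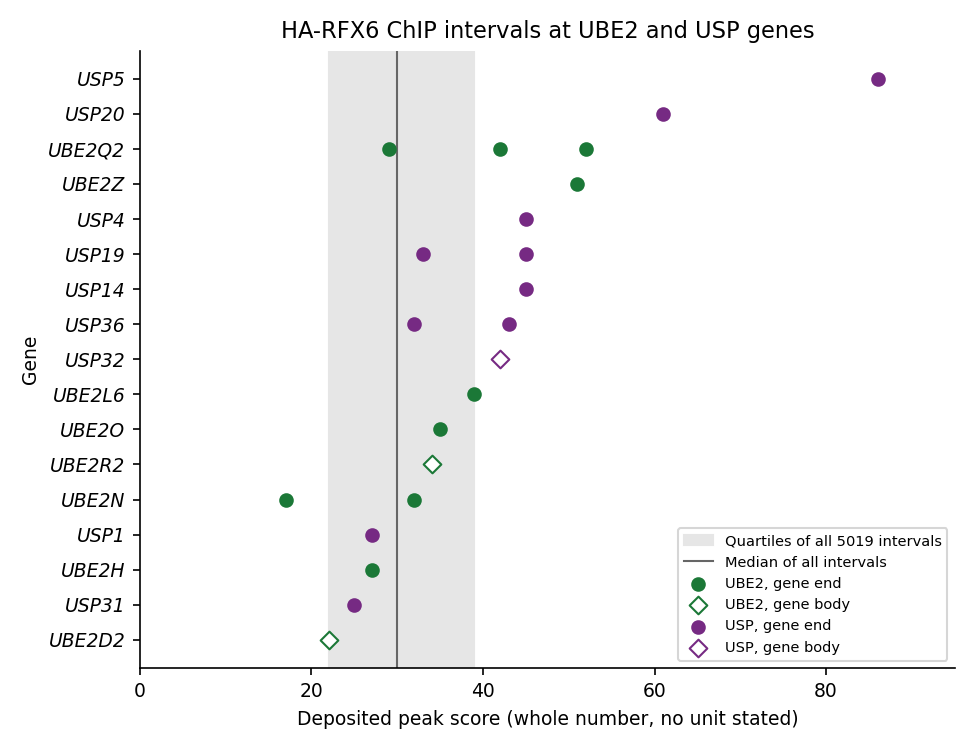
The horizontal axis gives the deposited score of each interval, which has no stated unit, and the vertical axis the 17 genes, ordered by their highest score. Filled circles are gene-end intervals and open diamonds are body intervals, the grey band spans the quartiles of all 5019 intervals and the line is their median. USP5 stands highest at 86, and 16 of the 22 intervals are at or above the median of 30, where intervals at coding gene ends have a median of 32.

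The USP genes are described first, in order of score. The highest score belonged to USP5, a protease that takes apart unanchored ubiquitin chains. Its interval at chr12:6851796-6852724 was 929 bp wide and was listed on 2 lines with scores of 86 and 13. By the higher score it ranked 32 of 5019. It reached from -354 to 574 bp around the RefSeq start and so covered the start itself. An end of CDCA3, which acts in the entry into mitosis, was 974 bp from its midpoint. The 250 bases before the start of USP5 (GRCh38.p14, chr12:6851900-6852149, plus strand), all inside the interval, are shown because they lie under the highest score among these genes. Capitals mark matches to any of the searched motifs, here 3 CCAAT boxes, all on the minus strand and read as ATTGG, and 2 GC boxes. The CCAAT boxes began at -197, -156 and -45 from the start.
USP5: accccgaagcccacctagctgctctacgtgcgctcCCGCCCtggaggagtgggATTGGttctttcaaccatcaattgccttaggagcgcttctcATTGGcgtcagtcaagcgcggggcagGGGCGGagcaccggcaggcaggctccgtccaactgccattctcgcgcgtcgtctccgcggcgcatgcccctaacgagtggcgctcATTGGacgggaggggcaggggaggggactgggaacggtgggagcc

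USP20, a deubiquitinase linked to hypoxia signalling and cholesterol synthesis, followed with a score of 61 (chr9:129835106-129835710, 605 bp). Its midpoint was 50 bp before the start. The same interval overlapped C9orf78, whose end was 133 bp from the midpoint, and a second line of it scored 18. It ranked 271 of 5019.

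At USP19, whose product includes a form anchored in the endoplasmic reticulum, 2 intervals were found beside the start. The interval at chr3:49120623-49120911 scored 45 and spanned the start, from -88 to 200 bp. The interval at chr3:49121012-49121287 scored 33 and lay before the start, from -464 to -189 bp. The latter overlapped the neighbouring gene LAMB2, a laminin chain, and its midpoint was 35 bp from the end of LAMB2 and 326 bp from that of USP19. This interval therefore cannot be given to either gene alone.

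USP4, which lies near USP19 on chromosome 3, had an interval with a score of 45 at chr3:49340075-49340612. It ended before the start, from -559 to -22 bp. USP14, a protease that works on the proteasome, also scored 45, at chr18:158298-158527. This interval was 230 bp wide, lay from -259 to -30 bp and overlapped LOC112268408. USP4, USP14 and the higher interval of USP19 thus shared rank 850.

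USP36, a nucleolar deubiquitinase, had 2 intervals on either side of its RefSeq start. The interval at chr17:78840544-78840781 scored 43 and lay from 33 to 270 bp after the start. The interval at chr17:78840932-78841376 scored 32, lay from -562 to -118 bp and overlapped LOC124904067. USP1, a DNA repair enzyme that removes ubiquitin from FANCD2 and PCNA, scored 27 at chr1:62436914-62437233. That interval lay inside the gene, from 519 to 838 bp after the start, and left the promoter window uncovered. USP31 had the lowest score among the USP genes, namely 25 at chr16:23148761-23149537, over its high-coordinate end. The scores of USP1 and USP31 were below the median of the list.

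Among the E2 genes, UBE2Q2 had the highest score and the most intervals. Its intervals were chr15:75842842-75843055 with a score of 29, chr15:75843213-75843773 with 52, and chr15:75843863-75844226 with 42. The strongest one was in the middle and covered the start, from -234 to 326 bp, and no other annotated gene end was within 1 kb of any of them. UBE2Z, an E2 that can be charged by the alternative activating enzyme UBA6, scored 51 at chr17:48908216-48908639. Its midpoint was 20 bp after the start, and it overlapped LOC105371814.

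UBE2L6, the E2 for the interferon-induced modifier ISG15, scored 39 at chr11:57568083-57568393. This interval ended before the start, from -458 to -148 bp. UBE2O, a large enzyme that acts as E2 and E3 in a single protein, scored 35 on both lines of chr17:76452828-76453481. Its midpoint was 2 bp before the start, which made it the most centred of these intervals. It also overlapped AANAT, whose end was 197 bp away. UBE2N, which builds lysine-63-type chains together with UBE2V1 or UBE2V2, had intervals with scores of 32 (chr12:93441985-93442366) and 17 (chr12:93441444-93441759). They lay before and after its start, from -419 to -38 bp and from 188 to 503 bp. The latter was the weakest interval at these genes and ranked 4359. UBE2H scored 27 and 17 on the lines of chr7:129952368-129952922, inside its high-coordinate end and 422 bp from UBE2H-DT.

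The search for motifs included GTTGCC, an arm of the X-box that RFX proteins are known to bind. On either strand of the 300-base RefSeq window, from 250 bases before to 50 after the start, it was present at UBE2N, UBE2Q2 and USP19. The windows of these genes, up to the start, are shown so that the match can be seen in its setting. They come from chr12:93441948-93442197 (minus strand), chr15:75843197-75843446 (plus strand) and chr3:49120824-49121073 (minus strand) of GRCh38.p14, and all matches to searched motifs are in capitals.
UBE2N: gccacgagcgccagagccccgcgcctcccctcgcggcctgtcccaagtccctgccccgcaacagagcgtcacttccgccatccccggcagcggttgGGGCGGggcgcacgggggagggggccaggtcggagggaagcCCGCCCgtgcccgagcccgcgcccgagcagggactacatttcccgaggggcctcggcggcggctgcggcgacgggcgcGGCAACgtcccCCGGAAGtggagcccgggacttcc
UBE2Q2: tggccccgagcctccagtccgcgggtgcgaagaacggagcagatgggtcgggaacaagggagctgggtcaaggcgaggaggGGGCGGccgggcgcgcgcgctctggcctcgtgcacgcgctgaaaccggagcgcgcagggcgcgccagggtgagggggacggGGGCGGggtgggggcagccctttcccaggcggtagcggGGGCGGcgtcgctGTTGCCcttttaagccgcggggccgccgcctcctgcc
USP19: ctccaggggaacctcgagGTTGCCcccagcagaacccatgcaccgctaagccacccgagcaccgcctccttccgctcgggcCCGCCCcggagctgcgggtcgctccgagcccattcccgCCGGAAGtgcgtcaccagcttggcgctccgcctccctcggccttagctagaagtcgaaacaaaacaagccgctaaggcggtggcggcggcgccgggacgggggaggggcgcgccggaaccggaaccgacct

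In UBE2N the match was on the minus strand, as GGCAAC, from -35 to -30, outside the interval that ended at -38. In UBE2Q2 it was from -37 to -32, within the strongest interval. In USP19 it was from -232 to -227, within the interval of score 33. USP19 had a second match in the window after the start. Thus 3 of the 13 member promoters overlapped by an interval held GTTGCC (23.1%, 8.18% to 50.3%), against 5 of the 55 other member promoters (9.09%). Among all coding promoters the share was 12.6%, and among the 1735 with an interval it was 12.3%. Both of these shares lay inside the confidence interval of the 13.

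The 3 intervals in gene bodies were examined against the RefSeq start, which need not be the outermost end of a gene. USP32 had an interval at chr17:60391826-60392505, with scores of 42 and 31, that was 30251 bp from the nearest end of the gene. It lay across the RefSeq start of USP32, from -372 to 307 bp. UBE2D2, a broadly used E2 for many ligases, had an interval of score 22 at chr5:139561098-139561414, which was 35016 bp from the nearest end. It also covered the RefSeq start, from -241 to 75 bp. UBE2R2, a partner of cullin ligases, had an interval of score 34 at chr9:33817905-33818163, from 745 to 1003 bp after its RefSeq start and 2866 bp from the gene end. All 3 body intervals therefore had their midpoint within 1 kb of a RefSeq start. The windows of the genes whose start was covered are shown up to the start, from chr17:60392134-60392383 (minus strand) and chr5:139561089-139561338 (plus strand), with motif matches in capitals.
USP32: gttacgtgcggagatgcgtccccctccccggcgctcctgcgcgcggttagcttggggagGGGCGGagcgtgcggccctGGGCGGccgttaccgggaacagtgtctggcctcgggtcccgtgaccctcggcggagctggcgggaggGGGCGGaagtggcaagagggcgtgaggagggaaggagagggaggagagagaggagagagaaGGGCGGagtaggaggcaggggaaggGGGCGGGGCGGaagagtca
UBE2D2: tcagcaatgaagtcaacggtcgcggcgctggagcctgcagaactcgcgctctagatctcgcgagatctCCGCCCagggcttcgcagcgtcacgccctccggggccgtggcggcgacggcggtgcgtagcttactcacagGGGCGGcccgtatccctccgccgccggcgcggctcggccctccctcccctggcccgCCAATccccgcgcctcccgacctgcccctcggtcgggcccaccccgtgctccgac

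USP32 held 6 GC boxes before its start, of which the pair nearest to the start overlap, and UBE2D2 held 2, with a CCAAT box at -55.

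Counted from RefSeq starts, 15 of the 68 members with a known start had an interval within 1 kb of it (22.1%, 13.8% to 33.3%). The background was 15.3% of 15842 coding genes, and it lay inside the confidence interval. At the far end of the gene, 0 of 68 members had an interval, which allows a share of up to 4.41%, whereas the background was 1.15%. UBE2H and USP31 were not among the 68.

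**Figure D2:**
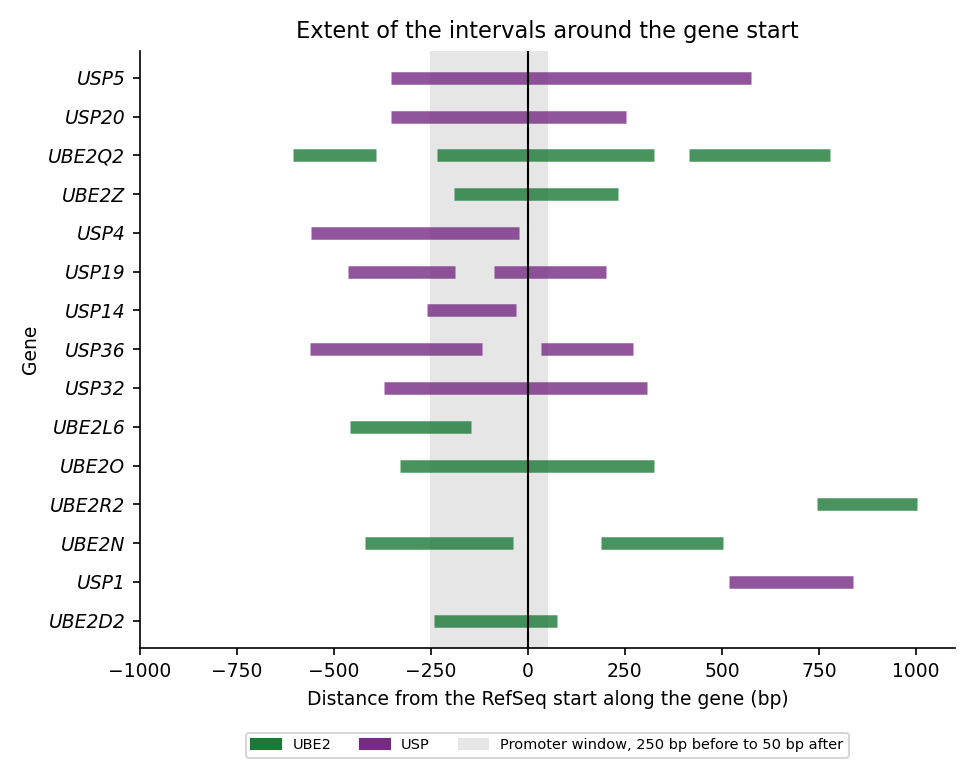
Each bar spans an interval, with the distance from the RefSeq start in bp on the horizontal axis, negative before the start, and the 15 genes with a known start on the vertical axis. The grey band is the promoter window, which an interval overlaps in 13 genes, whereas in USP1 and UBE2R2 the bar lies after it.

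Promoter composition was compared between members. The GC content of the 13 promoter windows overlapped by an interval had a median of 72.0%, with a range from 65.7% to 76.0%. The 55 other member promoters had a median of 69.7% and ranged from 37.7% to 84.3%, so the former lay within the range of the latter. All coding promoters had a median of 62.7%, and those with an interval 69.3%. The ratio of observed to expected CpG dinucleotides had a median of 0.944 in the 13 promoters and 0.875 in the 55, compared with 0.763 in all. The GC box GGGCGG was present in all 13 windows (at least 77.2% by the Wilson interval) and in 42 of the 55 (76.4%), against 58.5% of all coding promoters and 81.8% of those with an interval. A GC-rich window has more chances to hold this motif, and the part of base composition was not tested.

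**Figure D3:**
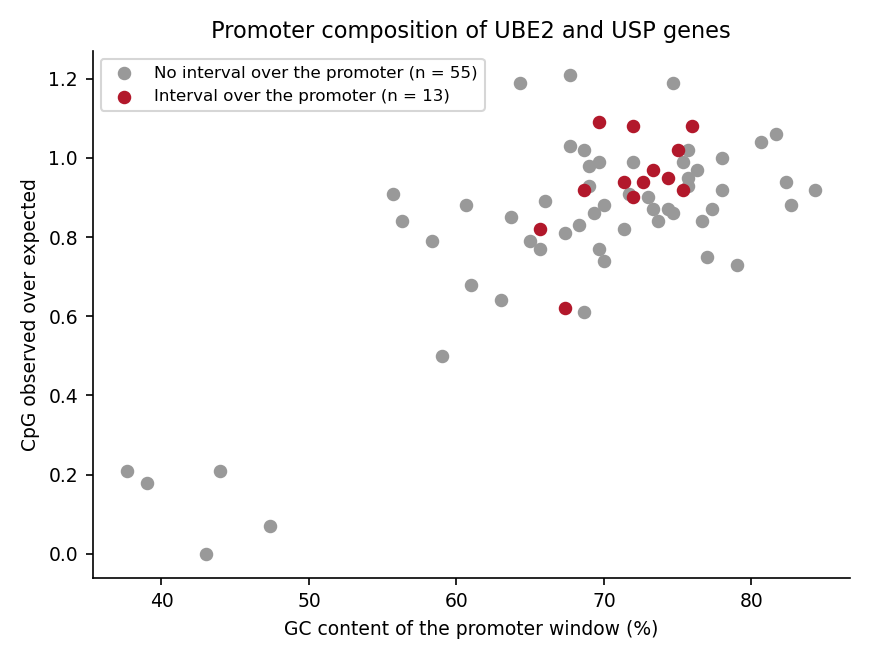
Points are the 68 promoter windows of UBE2 and USP genes, with GC content in percent on the horizontal axis and the ratio of observed to expected CpG on the vertical axis. The 13 windows with an interval (red) lie between 65.7% and 76.0% GC, among GC-rich windows without an interval (grey), and the windows of low GC content are all grey.

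The remaining motifs were less frequent. The CCAAT box (CCAAT) was in 4 of the 13 windows (30.8%) and in 36.4% of all coding promoters. The E-box (CACGTG), bound by MYC and related factors, was in 2 (15.4%, against 8.88%), namely USP32 and USP36. The ETS core (CCGGAAG) was in 3 (23.1%, against 14.2%), namely UBE2N, USP19 and USP20. The cAMP response element (TGACGTCA) and the palindromic NRF1 site were in 0 of the 13, and in 2.59% and 1.75% of all. These shares rest on 13 windows, and matches describe letters only.

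Neighbouring genes shared several of these intervals. Of the 19 gene-end intervals, 5 were also within 1 kb of an end of another coding gene (26.3%), compared with 553 of 3054 (18.1%) for all gene-end intervals. The neighbours were CDCA3 at USP5, C9orf78 at USP20, LAMB2 at both intervals of USP19 and AANAT at UBE2O. When each interval was given only to the nearest coding gene end, all 14 genes were still counted.

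Closely related enzymes were then compared. Among 23 groups of paralogs formed within the UBE2 and USP symbols, 10 had an interval at 1 gene, 13 had none, and 0 had intervals at several. E2 genes with other symbols, such as CDC34, were not placed in a group, and UBE2R2 was in none either. Both CDC34 (score 22) and UBE2R2 (score 34) had an interval in the body. The count of 0 therefore describes the groups formed and not all related enzymes. UBE2Q2 had intervals and UBE2Q1 none, and UBE2L6 had an interval and UBE2L3 none. UBE2D2 was the gene with an interval among UBE2D1, UBE2D2, UBE2D3 and UBE2D4, which encode closely similar E2 proteins. USP4 had an interval, but not USP11 or USP15, and USP5 had an interval, but not USP13. The same held for USP20 against USP33, USP36 against USP42, USP31 against USP43, USP32 against USP6, and USP1 against USP12 and USP46. An interval at an end or in the body was present at 19.3% of the 88 genes and at 19.5% of all coding genes. With such shares most genes of a small group lack an interval, and the pattern was not read as a property of the paralogs. Whether the groups differ from sets of unrelated genes with the same background was not tested.

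The other 71 genes had no interval at an end or in the body. The 28 UBE2 genes without one included UBE2M and UBE2F, the E2 enzymes for NEDD8. They included UBE2C, UBE2S and UBE2T, E2 enzymes of the anaphase-promoting complex and of the Fanconi anaemia pathway, and the DNA repair E2 genes UBE2A and UBE2B. UBE2V1 and UBE2V2, the partners of UBE2N that lack the catalytic cysteine, were without an interval, as were UBE2J1 and UBE2J2 of the endoplasmic reticulum and UBE2G1 and UBE2G2. Further UBE2 genes without an interval were UBE2D1, UBE2D3, UBE2D4, UBE2E1, UBE2E2, UBE2E3, UBE2K, UBE2L3, UBE2L5, UBE2Q1, UBE2QL1, UBE2U, UBE2V1P16 and UBE2W.

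Among the 43 USP genes without an interval were USP7, which acts on MDM2 and p53, the endosomal USP8, the mitochondrial USP30, the interferon-induced USP18 and USP39 of the spliceosome. The histone deubiquitinases USP3, USP16, USP22, USP27X, USP44, USP49 and USP51 were without an interval too. The rest were USP2, USP6, USP6NL, USP9X, USP9Y, USP10, USP11, USP12, USP13, USP15, USP21, USP24, USP25, USP26, USP28, USP29, USP33, USP34, USP35, USP37, USP38, USP40, USP42, USP43, USP45, USP46, USP47, USP48, USP50, USP53 and USP54. With unknown depth, missing intervals do not show that these genes were free of RFX6. The nearest misses were USP54, with an interval of score 45 at 1816 bp outside its end, UBE2G2 at 2725 bp (score 35) and USP6 at 4205 bp (score 67). Just inside the limit, the farthest genes were USP1 at 678 bp and the higher interval of USP36 at 777 bp. For 56 of the 71 genes the nearest interval was more than 25 kb away, which was not compared with a share over all coding genes.

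By chromosome, 4 of the 8 genes on chromosome 17 had an interval, namely UBE2O, UBE2Z, USP32 and USP36, where 26.3% of all coding genes had one. On chromosome 9, UBE2R2 and USP20 had an interval, and these are the 2 members located there, where 28.5% of all coding genes had one. On chromosomes X and Y, 0 of 8 genes had an interval, which allows a share of up to 37.5%, and on chromosome X the background was 3.42%. On chromosome 4, where the background was 6.23%, none of UBE2D3, UBE2K, USP38, USP46 and USP53 had one.

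Gene length was compared as well. The enzyme genes were longer than coding genes in general, with a median of 63700 bp against 24100 bp. Of the 44 genes shorter than this median, 12 had an interval at an end (27.3%, 16.3% to 41.8%), and of the 44 longer genes 2 had one (4.55%, 1.26% to 15.1%). These were UBE2H and USP31. In all coding genes, the shares under the same limit were 15.3% for shorter and 16.1% for longer genes. The confidence intervals of the shorter and the longer enzyme genes did not overlap, but the split was chosen after the values were seen. The gap between them was narrow, and UBE2O (63697 bp) and USP4 (62910 bp), both with an interval at an end, lay just below the cut. No other cut is reported here. The split also counted gene ends only. The 3 genes with an interval in the body only, UBE2D2, UBE2R2 and USP32, were all longer genes (3 of 44, against 0 of 44 shorter genes). Their intervals had a midpoint within 1 kb of a RefSeq start, and a split by length counted from starts was not made.

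Finally, the other parts of the ubiquitin system were listed beside the 15.5% background. Among ubiquitin precursors, 0 of 4 genes had an interval at an end. Of 10 activating enzymes, ATG7, the E1-like enzyme of autophagy, had an interval at an end (score 48). Among 8 E2 and E2-like genes with other symbols, 3 had an interval at an end (37.5%, 13.7% to 69.4%), namely TSG101 (score 54), BIRC6 (42) and ATG3 (33). AKTIP and CDC34 had one in the body, and that of CDC34 was 1007 bp from the end. Of 37 other deubiquitinating enzymes, 5 had an interval at an end (13.5%, 5.91% to 28.0%). These were JOSD1 (68), MINDY2 (67), VCPIP1 (40), OTUD7B (39) and ATXN3 (37). JOSD1 and ATXN3 are Josephin proteases, VCPIP1 and OTUD7B belong to the OTU family, and MINDY2 to the MINDY family.

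The ligases were counted in the same way. Of 14 core genes of cullin RING ligases, 7 had an interval at an end (Wilson interval 26.8% to 73.2%). SKP1, the adaptor of the SCF ligases, had the highest score (76), followed by CUL3 (72), and RBX1 (34), ELOC (32), RNF7 (28), CUL5 (27) and ELOB (22) were the others. Of 27 HECT ligases, 8 had an interval at an end (29.6%, 15.9% to 48.5%), among them NEDD4 (63), HERC1 (61) and HERC4 (59). Of 13 RBR ligases, 4 had one (30.8%, 12.7% to 57.6%), with scores from 19 at ARIH2 to 35 at RNF19B. The lists were short and were chosen with earlier results of these data known, so that a share away from the background is a description only. No difference between them and the UBE2 and USP genes was tested.

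**Figure D4:**
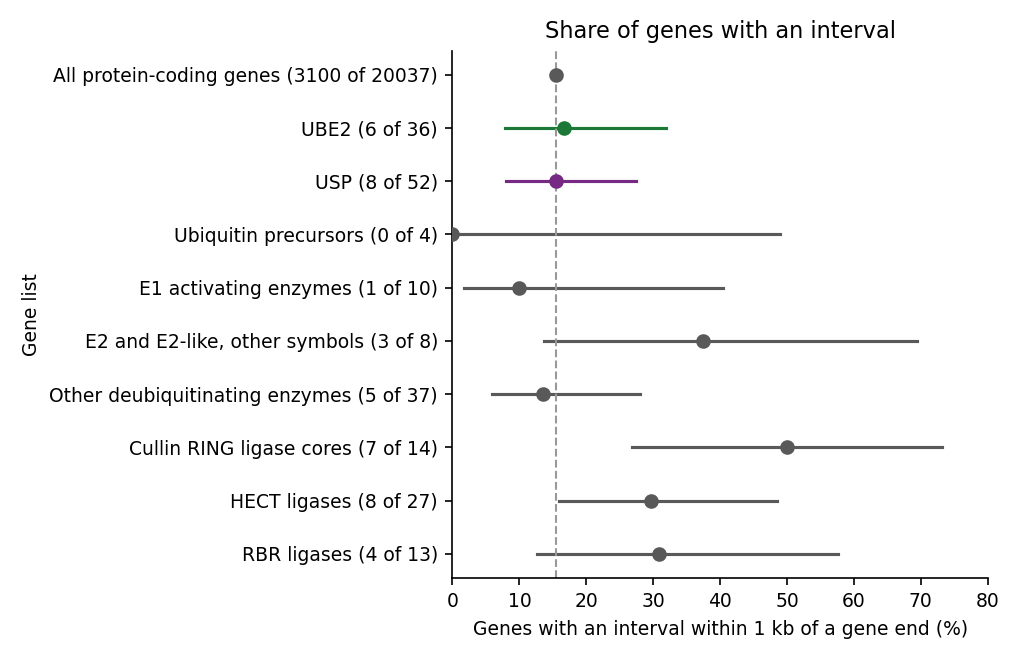
Points are the percentage of genes with an interval midpoint within 1 kb of a gene end, lines are 95% Wilson intervals, and the numbers of genes stand beside each list on the vertical axis. The dashed line is the 15.5% of all protein-coding genes, which runs through the intervals of UBE2 (16.7%) and USP (15.4%) genes.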

How the data were processed

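Chromatin of MHCC-97H cells with HA-tagged RFX6 was sequenced after anti-HA ChIP, and peaks were called with MACS2 2.1.0.2 per the submitters' processing notes. The authors deposited a list with a whole-number score per peak, whose meaning is not stated. The aligner and the control used in peak calling are not given in the sources used here. The processing notes name GRCh37, but the coordinates fitted GRCh38. The midpoints of 49.6% of intervals lay within 1 kb of a RefSeq GRCh38.p14 coding start, against 2.93% and 2.95% after moves of 20 kb. GRCh38.p14 was therefore used.

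The 6214 lines included 1 with digit separators, which was repaired. Lines with identical coordinates were counted once with the highest score, which gave 5022 intervals, and 3 mitochondrial ones were set aside. Coordinates are 1-based. Gene ends came from a RefSeq gene table, and starts and strands from a RefSeq promoter table, in which 68 of the 88 members were found and which places 83.8% of coding starts at a gene end. Motifs were searched on both strands. The members followed the symbol rule, and the gene lists and paralog groups were chosen from general knowledge. All of these choices were made with earlier results of these data known. All members with an interval were to be named, and those without were listed once. A few genes of the lists are counted but not reported here by name. Shares carry 95% Wilson intervals, and a count of 0 was given the limit of 3 counts. Assignment was tested on simulated intervals. Samples were grouped by title, and no test was made with 1 ChIP library. Alternatives were scores of at least 30 and 20, windows of 2 kb and 500 bp, any overlap, merging within 1 kb, the nearest gene end, and RefSeq starts (added after the data were seen). Python 3.11.15, numpy 2.4.6, pandas 2.3.3, scipy 1.17.1 and matplotlib 3.10.9 were used.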

Additional observations from a re-analysis of the deposited data

How the results depend on the processing

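The number of members with an interval at a gene end stayed between 11 and 15, compared with 14 in the report, under the alternatives tried. It was 11 for scores of at least 30, when UBE2H, USP1 and USP31 dropped out, and 15 within 2 kb, when USP54 was added. The number of UBE2 genes ranged from 5 to 7 and that of USP genes from 6 to 9 over all alternatives. The median score ranged from 37 to 44. The number of genes with an interval in the body only was 3 in the report. It was 2 for scores of at least 30, when UBE2D2 dropped out, and 2 for the nearest gene end only, when USP32 dropped out. It was 4 within 500 bp, when USP1 was added. It fell to 0 when RefSeq starts were used in place of gene ends, because UBE2D2, UBE2R2 and USP32 were then counted at the start. In that count UBE2H and USP31 were left out for want of a start. No paired analysis was possible because the list came from a single ChIP library, and no replicate could be left out. Depth could not be examined, since the list holds no read counts.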
